A study of Mus musculus with 16 samples.

Results

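The genes described here encode trans-synaptic adhesion proteins of the neurexin, neuroligin and Lrrtm families. Members were the entries of the deposited count table named Nrxn2, Nrxn3, Nlgn1, Nlgn3, Lrrtm1, Lrrtm2, Lrrtm3 or Lrrtm4, and all 8 were found among its 48795 genes. Their levels were compared in whole mouse striatum across 16 RNA-seq libraries. Mice were wild type (WT) or carried a knockout (KO) of Sapap3, now called Dlgap3, which encodes a scaffold protein of excitatory postsynaptic densities and whose loss in mice is a model of compulsive grooming. An adeno-associated virus injected into the striatum carried tdTomato, a fluorescent protein used as control, or hM4Di, a designer Gi-coupled receptor that the labels place in astrocytes. The 4 groups of 4 libraries are called WT_tdT, WT_hM4D, KO_tdT and KO_hM4D. Every group received deschloroclozapine (DCZ), the agonist of hM4Di, so no group shows receptor without agonist, and the receptor, its activation and the viral payload cannot be told apart. The labels do not give the age of the mice or the promoter of the virus. Whole striatum pools neurons, glia and passing axons, so fewer cells of a type and less RNA per cell cannot be told apart.

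Neurexins sit mainly on the presynaptic membrane. Across the cleft they bind postsynaptic neuroligins, which are relatives of cholinesterases without enzyme activity, and Lrrtm proteins, which carry leucine-rich repeats and stand mostly at excitatory synapses. Neurexin genes use separate promoters for long alpha and short beta proteins, and alternative splicing of both changes which partners they bind. Astrocytes also make neuroligins, which contact neuronal neurexins and shape astrocyte growth. In the striatum the cortical and thalamic inputs bring neurexins made outside the tissue, so the counts here come from cells with their RNA in the striatum and from the RNA of any tissue taken with it.

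Promoter sequences are shown for Nrxn3 and Nlgn1, whose groups separated in several comparisons, because the count of a gene adds up transcripts from all its starts. The Nrxn3 entries are the annotated start of a long transcript (chr12:88794254-88794553, plus strand) and the internal start of the short, beta-type transcripts (chr12:89812233-89812532, plus strand). Other annotated transcripts of Nrxn3 start upstream of the long start, the first of them at base 88722876. The window at the long start thus lies inside the gene, and whether it acts as a promoter was not tested. The Nlgn1 entry lies at chr3:26331860-26332159 on the minus strand. An annotated transcript of Nlgn1 starts upstream of it, at base 26332460, so this window too lies inside the gene. Sequences are from RefSeq on GRCm38.p6, 5′ to 3′, with the 250 bases before the start in lower case and the first 50 transcribed bases in capitals.
Nrxn3 long start: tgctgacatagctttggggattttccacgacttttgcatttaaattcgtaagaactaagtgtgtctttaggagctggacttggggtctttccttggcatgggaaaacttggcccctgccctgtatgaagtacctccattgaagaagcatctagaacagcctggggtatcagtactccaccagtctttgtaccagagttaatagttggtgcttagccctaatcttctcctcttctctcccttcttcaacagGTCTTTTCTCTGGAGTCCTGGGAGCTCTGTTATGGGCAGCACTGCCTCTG
Nrxn3 short start: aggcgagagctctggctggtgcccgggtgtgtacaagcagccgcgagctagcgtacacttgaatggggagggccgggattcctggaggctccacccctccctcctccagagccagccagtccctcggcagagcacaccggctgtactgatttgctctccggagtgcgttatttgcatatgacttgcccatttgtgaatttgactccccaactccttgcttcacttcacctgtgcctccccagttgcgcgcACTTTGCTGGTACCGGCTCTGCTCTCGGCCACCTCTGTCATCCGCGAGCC
Nlgn1 start: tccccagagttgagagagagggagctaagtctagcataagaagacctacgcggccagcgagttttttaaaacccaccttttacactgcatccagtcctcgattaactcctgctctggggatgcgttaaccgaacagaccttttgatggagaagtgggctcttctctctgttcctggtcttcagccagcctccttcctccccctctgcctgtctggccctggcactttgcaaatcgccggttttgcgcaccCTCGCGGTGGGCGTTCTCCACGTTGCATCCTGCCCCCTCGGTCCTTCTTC
The window at the short start of Nrxn3 was richer in G and C than that at the long one, with 60.7% against 47.3%. The window at the Nlgn1 start held 55.7%. These values, each over 300 bases, compare windows at annotated starts and do not show which of them are promoters. RefSeq entries of 5 members (Nrxn3, Nlgn1, Lrrtm1, Lrrtm3 and Lrrtm4), with 9 promoters, were used. No entry for Nrxn2, Lrrtm2 or Nlgn3 was used here, so the motif search does not cover them. Both strands of each promoter were searched for the cyclic AMP response element TGACGTCA and its shorter form TGACG, the AP-1 motif TGANTCA, the GC box GGGCGG and the E-box CACGTG. Matches to the AP-1 motif and the GC box stood in another Nrxn3 promoter, and a GC box stood in that of Lrrtm1. No other match was found in the 9 windows. Over 32841 RefSeq promoters of the same length 1.79% held TGACGTCA, 20.8% TGACG (which includes the former), 7.81% TGANTCA, 35.7% GGGCGG and 7.15% CACGTG.

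On GRCm38 with GENCODE M21 the longest genes among the members are Nrxn3, Nlgn1 and Lrrtm4. Nrxn3 spans 1612 kb of chromosome 12 (88722876 to 90334935, plus strand), Nlgn1 spans 906.2 kb of chromosome 3 (25426215 to 26332460, minus strand), and Nrxn2 spans 125.4 kb of chromosome 19 (6418731 to 6544169, plus strand). Nlgn3 is X-linked and short, with 26.8 kb (101299168 to 101325963, plus strand). Lrrtm4 spans 791.3 kb of chromosome 6 (80018877 to 80810143, plus strand). The other Lrrtm genes lie inside alpha-catenin genes on the opposite strand. Lrrtm1 (chromosome 6, 77242689 to 77257791) lies inside Ctnna2, Lrrtm2 (chromosome 18, 35209003 to 35215024) inside Ctnna1, and Lrrtm3 (chromosome 10, 63928472 to 64090277) inside Ctnna3. Lrrtm1 and Lrrtm3 share 0 exon bases with their hosts and Lrrtm2 shares 95. Other exon overlaps are 3823 bases of Nlgn3 with the same-strand transcript Gm21986, 1543 of Lrrtm4 with the antisense gene Gm4409, 1229 of Nlgn1 with the antisense gene A830092H15Rik, 682 of Nrxn2 with Slc22a12, 207 of Nrxn2 with the antisense gene Gm14964 and 439 of Nrxn3 with Gm37980. The strand setting of the counting is not given in the sources used here, so reads from these stretches cannot be assigned with certainty. The annotated transcripts of Nrxn3 range in coding length from 430 residues (Nrxn3-203, from the short start) to 1571 (Nrxn3-205, from the long one), and those of Nrxn2 include a short form of 660 (Nrxn2-202) and a long one of 1703 (Nrxn2-205). A single count per gene does not tell these forms apart.

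The libraries held 129149745 to 180655067 counts, and the 8 members had between 4584 counts (Lrrtm4) and 64217 counts (Nrxn3) per library. Counting error was thus small beside the spread over all 16 libraries. In the tightest groups, such as Lrrtm3 in KO_hM4D (87.5 ± 0.714 CPM, SD, n = 4), it need not have been. Dlgap3 checked the genotype labels, with 294.4 to 437.0 CPM (each library's counts divided by its TMM-adjusted size) in the 8 wild-type libraries and 152.9 to 166.6 CPM in the 8 knockout libraries. In 4 libraries (WT_tdT 4, WT_hM4D 2, WT_hM4D 4 and KO_tdT 3) both Xist and Y-linked transcripts were at 5% or more of their highest library, so these may not be of 1 mouse each. KO_tdT 4 came close, with 28.2 CPM of Xist and 7.23 CPM of Y-linked genes. All 4 KO_hM4D libraries had Xist at 30.5 to 46.8 CPM and Y-linked genes under 0.1 CPM, while KO_tdT 1 and 2 had Xist at 0. The WT_hM4D libraries had Xist at 1.23 to 22.3 CPM and Y-linked genes at 16.8 to 142.3 CPM. KO_hM4D and WT_hM4D thus differ in sex transcripts as well as genotype, and the 2 cannot be told apart in that comparison. KO_hM4D and KO_tdT likewise differ in sex transcripts as well as virus, which cannot be told apart there either. No marker of the 10 cell type lists was at 0 in any library, and those of striatal projection neurons (Drd1, Drd2, Ppp1r1b and others) summed to 3465 to 6391 CPM. Markers of cortical excitatory neurons summed to 571.0 to 1304 CPM and those of thalamic, septal and pallidal neurons to 58.9 to 319.8 CPM. RNA of neighbouring regions may thus have been counted as well, but it cannot be told apart from expression of these markers in striatal cells. Of the markers in these 10 lists 0 were called by edgeR in any comparison.

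Per length of exon, Nrxn3 was the member with the highest level, at 27.2 ± 1.21 CPM per kb (SD, n = 16 libraries). Lrrtm3, Lrrtm2 and Nrxn2 followed closely at 21.4 ± 1.85, 20.8 ± 1.54 and 20.6 ± 1.82 CPM per kb. Lrrtm3 was above Lrrtm2 in 8 of 16 libraries and Lrrtm2 above Nrxn2 in 9, so the order of these levels does not hold beyond their spread. Lrrtm1 stood at 17.9 ± 1.71 CPM per kb, under Nrxn2 in 14 of 16 libraries. Nlgn1 at 13.3 ± 0.809, Nlgn3 at 9.55 ± 0.370 and Lrrtm4 at 5.94 ± 0.402 CPM per kb came last, each under the one before it in at least 15 of 16 libraries. By this measure the Lrrtm genes other than Lrrtm4 had higher mean levels than both neuroligins. The length used joins all annotated exons of a gene, which come to 13422 bases for Nlgn1. Its annotated protein-coding transcripts hold only 3013 to 11807 bases each. The order of the members therefore depends on the length chosen, and levels per transcript length were not computed.

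**Figure D1:**
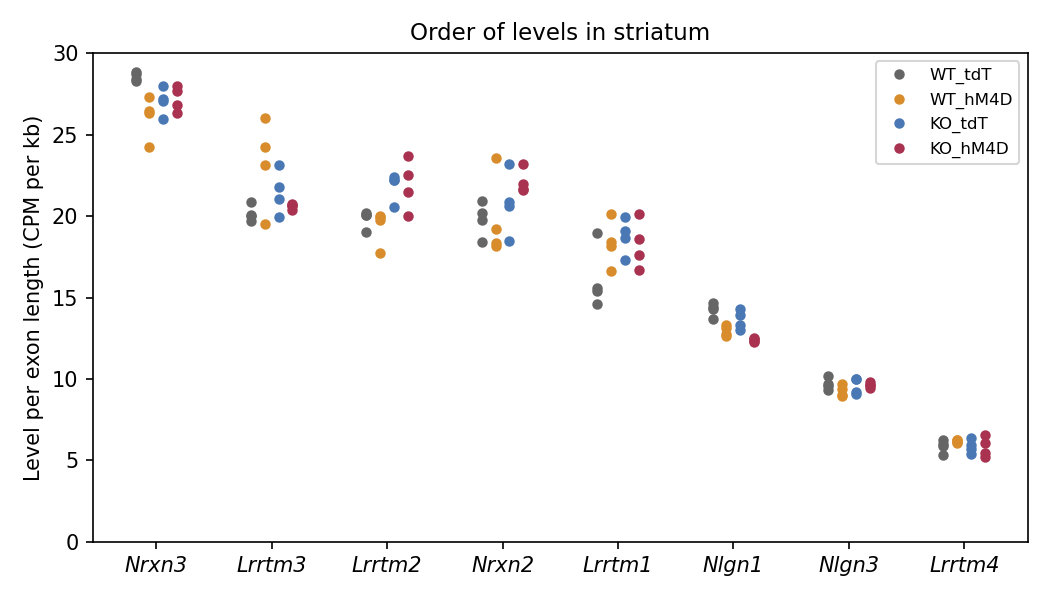
Level of each adhesion gene per kb of annotated exon (CPM per kb, y axis from 0) in 16 libraries, coloured by group. Nrxn3 lies highest and Lrrtm4 lowest, and the points of Lrrtm3, Lrrtm2 and Nrxn2 overlap.

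The members' spread between mice lay around that of other genes, with 4 of 8 above and 4 below the median of 7.24% over 9575 genes of at least 10 CPM. The coefficient of variation of CPM over the 16 libraries was 3.88% for Nlgn3 and 4.43% for Nrxn3, and it reached 8.67% for Lrrtm3, 8.81% for Nrxn2 and 9.57% for Lrrtm1.

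With edgeR's quasi-likelihood test no member was called at an adjusted p under 0.05 in any of the 7 comparisons made. In KO_tdT against WT_tdT 0 of 8 members were called, where 0.0384% of 20825 tested genes were, and in WT_hM4D against WT_tdT 0 of 8 where 0.0864% were. In KO_hM4D against KO_tdT 0 of 8 were called beside 0.0048% of genes, and in KO_hM4D against WT_hM4D 0 of 8 beside 0.0192%. The genotype comparison averaged over viruses had 0 of 8 beside 0.0768%, the virus comparison averaged over genotypes 0 of 8 beside 0.0288%, and the interaction 0 of 8 beside 0.0%. Few genes of any kind were called, so these counts say little about the members. At an unadjusted p under 0.05 stood 2 of 8 members in KO_tdT against WT_tdT (8.69% of all genes) and 4 of 8 in WT_hM4D against WT_tdT (11.1%). The count was 1 in KO_hM4D against KO_tdT (11.1%), 2 in KO_hM4D against WT_hM4D (12.7%), 2 in the interaction (6.77%), 2 in the averaged genotype comparison (14.0%) and 1 in the averaged virus comparison (15.3%).

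DESeq2, run as an alternative, called Nlgn1 in WT_hM4D against WT_tdT, in KO_hM4D against KO_tdT and in their average, where it called 1.23%, 0.595% and 3.24% of all genes. It also called Lrrtm2 in the averaged genotype comparison, where it called 1.07%. It called 0 of 8 members in KO_tdT against WT_tdT (0.298% of genes), KO_hM4D against WT_hM4D (0.399%) and the interaction (0.0576%). The limma-voom test called 0 of 8 in every comparison. The members' fitted changes were small, with at most 0.27 on the log2 scale in either direction. Of the 8 members 4 had a positive and 4 a negative change in every comparison except WT_hM4D against WT_tdT, where the split was 3 and 5. The median log2 change of the members lay between -0.02 and 0.03, beside -0.01 to 0.00 over all genes.

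**Figure D2:**
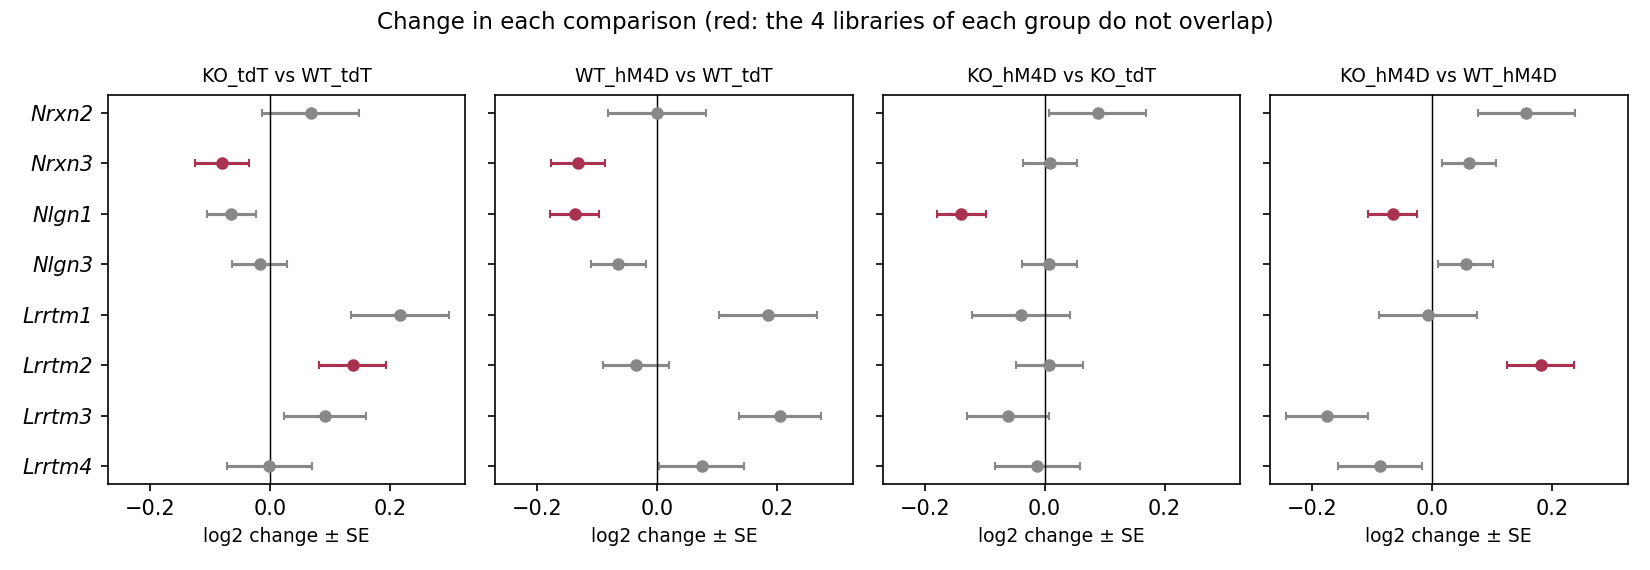
Log2 change ± SE (x axis) of the 8 members in the 4 pairwise comparisons, with red marking genes whose 4 libraries of one group all lie beyond the 4 of the other. Nlgn1 lies below 0 with hM4Di in both genotypes and Lrrtm2 lies above 0 with the knockout under both viruses.

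Nrxn3, the neurexin with the highest level, had its highest values in control wild-type mice. WT_tdT 1 to 4 read 363.6, 362.4, 358.6 and 357.2 CPM, and WT_hM4D 1 to 4 read 331.9, 333.5, 305.5 and 344.3 CPM. KO_tdT 1 to 4 read 341.0, 327.7, 353.0 and 342.7 CPM, and KO_hM4D 1 to 4 read 349.4, 353.0, 338.6 and 332.3 CPM. All 4 WT_tdT libraries lay above all 12 others, while the other 3 groups overlapped each other. The log2 change was -0.13 (SE 0.04, adjusted p by edgeR = 0.290) in WT_hM4D and -0.08 (SE 0.04, adjusted p by edgeR = 0.650) in KO_tdT, each against WT_tdT, a control that both comparisons share. Against their own controls, KO_hM4D read 0.01 (SE 0.04, adjusted p by edgeR = 0.954) relative to KO_tdT and 0.06 (SE 0.04, adjusted p by edgeR = 0.567) relative to WT_hM4D. The interaction was 0.14 (SE 0.06, adjusted p by edgeR = 0.719), so a difference in the hM4Di effect between genotypes was not shown.

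Nrxn2, the other neurexin, varied widely within groups. WT_tdT 1 to 4 read 253.9, 273.0, 278.8 and 289.3 CPM, and WT_hM4D 1 to 4 read 253.5, 325.5, 250.8 and 265.0 CPM. KO_tdT 1 to 4 read 285.1, 320.0, 287.8 and 254.9 CPM, and KO_hM4D 1 to 4 read 303.1, 320.1, 298.7 and 298.8 CPM. The groups overlapped in all 4 pairwise comparisons of the design, and the single library WT_hM4D 2 lay above every KO library. All 4 KO_hM4D libraries lay above all 4 WT_tdT libraries, which differ in both genotype and virus and were not tested against each other. Nlgn1 and Nrxn3 also separated in this pair, lower in KO_hM4D, and the share of all genes that did so was not computed. KO_hM4D against WT_hM4D gave a log2 change of 0.16 (SE 0.08, adjusted p by edgeR = 0.425), and the alternatives gave 0.12 to 0.28. Its change in WT_hM4D against WT_tdT was -0.00 (SE 0.08).

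The level of Nrxn2 moved with cell type markers from library to library. Over the 16 libraries, which share dissection and depth with the markers measured in them, Pearson's r between log2 Nrxn2 and the mean log2 level of the markers was 0.78 for cortical excitatory neurons, -0.77 for projection neurons and -0.84 for oligodendrocytes. Taken as deviations from the group means, the values were 0.73, -0.73 and -0.78. The cortical markers were higher in KO_hM4D than in WT_hM4D in 8 of 8 cases (0 called by edgeR), with sums of 916.2 to 1304 against 680.7 to 1281 CPM. The oligodendrocyte markers were lower in 6 of 6 (0 called), with 5128 to 7498 against 5719 to 9479 CPM. The projection neuron markers were lower in 10 of 10 (0 called), with 3465 to 4595 against 3579 to 5959 CPM. The part of these lists in the Nrxn2 values was not tested.

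**Figure D3:**
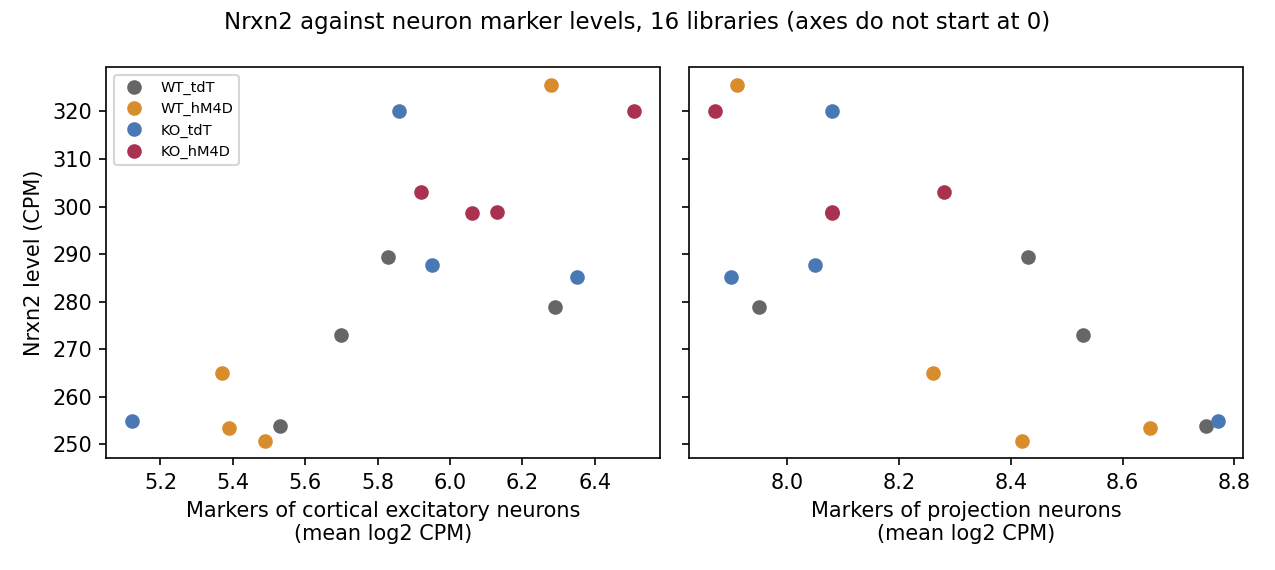
Nrxn2 level (CPM) against the mean log2 CPM of markers of cortical excitatory neurons (left) and of striatal projection neurons (right), 1 point per library, coloured by group. Nrxn2 is higher where the cortical markers are higher and where the projection neuron markers are lower, within groups as well as over all 16 libraries.

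Nlgn1, the neuroligin of excitatory synapses, was lower in every hM4Di library than in every tdTomato library of the same genotype. WT_tdT 1 to 4 read 196.6, 183.9, 192.1 and 193.2 CPM, and WT_hM4D 1 to 4 read 176.3, 171.3, 169.6 and 178.7 CPM. KO_tdT 1 to 4 read 179.0, 174.6, 192.2 and 186.7 CPM, and KO_hM4D 1 to 4 read 167.5, 165.5, 167.8 and 164.4 CPM. KO_hM4D was the lowest and the tightest group, and its 4 libraries also lay below all 4 of WT_hM4D.

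The log2 change of Nlgn1 with hM4Di was -0.14 in both genotypes, with an SE of 0.04 in each and adjusted p by edgeR of 0.224 (wild type) and 0.285 (knockout). The interaction was -0.00 (SE 0.06, adjusted p by edgeR = 0.998), so a difference between genotypes was not shown. Averaged over genotypes, the change was -0.14 (SE 0.03, adjusted p by edgeR = 0.0536), or -9.16%, just outside the threshold. DESeq2 gave adjusted p = 0.0133 in wild types, 0.0276 in knockouts and 3.51e-05 for the average, while over all alternatives the adjusted p of the average ranged from 3.51e-05 to 0.371. Without KO_tdT 2 the average was called by edgeR (-0.15, adjusted p by edgeR = 0.0303). The knockout comparisons gave -0.06 (SE 0.04, adjusted p by edgeR = 0.693) under tdTomato and -0.07 (SE 0.04, adjusted p by edgeR = 0.508) under hM4Di.

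Other quantities separated the same libraries. The KO_hM4D libraries had Xist at 30.5 to 46.8 CPM and Y-linked genes at 0.0112 to 0.0949 CPM. KO_tdT 1 and 2 had Xist at 0, and KO_tdT 3 and 4 had it at 26.5 and 28.2 CPM. Y-linked genes in KO_tdT stood at 7.23 to 147.7 CPM. Sex transcripts thus separated KO_hM4D from KO_tdT, and sex and virus cannot be told apart there. Within KO_tdT, libraries 1 to 4 read 179.0, 174.6, 192.2 and 186.7 CPM of Nlgn1, and the part of sex in these values was not tested. Without the libraries of mixed transcripts the change was -0.15 (adjusted p by edgeR = 0.445) in wild types and -0.12 (adjusted p by edgeR = 0.656) in knockouts. The 4 endothelial markers (Cldn5, Pecam1, Flt1, Kdr) summed to 70.0 to 79.8 CPM in WT_hM4D and 58.9 to 65.3 CPM in WT_tdT, groups that did not overlap, and their part in the Nlgn1 values was not tested. No summed marker list separated KO_hM4D from KO_tdT. Taken singly, 1 of the 8 astrocyte markers lay higher and 2 lower without overlap there, with 0 called. Beside these stood 2.33% of all genes higher and 2.55% lower, and the part of these markers in the Nlgn1 values was not tested. Nlgn1 and Nrxn3 moved together from library to library, with r = 0.60 over 16 libraries and 0.60 for deviations from the group means.

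Nlgn3, a neuroligin found at both excitatory and inhibitory synapses, was the steadiest member. Its lowest, median and highest levels over the 16 libraries were 82.8, 89.0 and 94.6 CPM. Group means were 89.9 ± 3.43 CPM in WT_tdT, 85.9 ± 3.28 in WT_hM4D, 88.8 ± 4.67 in KO_tdT and 89.3 ± 1.52 in KO_hM4D (SD, n = 4), and all groups overlapped. The largest of its changes in a pair of groups was -0.06 (SE 0.05, adjusted p by edgeR = 0.634), in WT_hM4D against WT_tdT. Although Nlgn3 is X-linked, the KO_hM4D libraries, all with Xist, stood within the range of the KO_tdT libraries, which read 92.9, 85.6, 92.8 and 84.1 CPM.

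**Figure D4:**
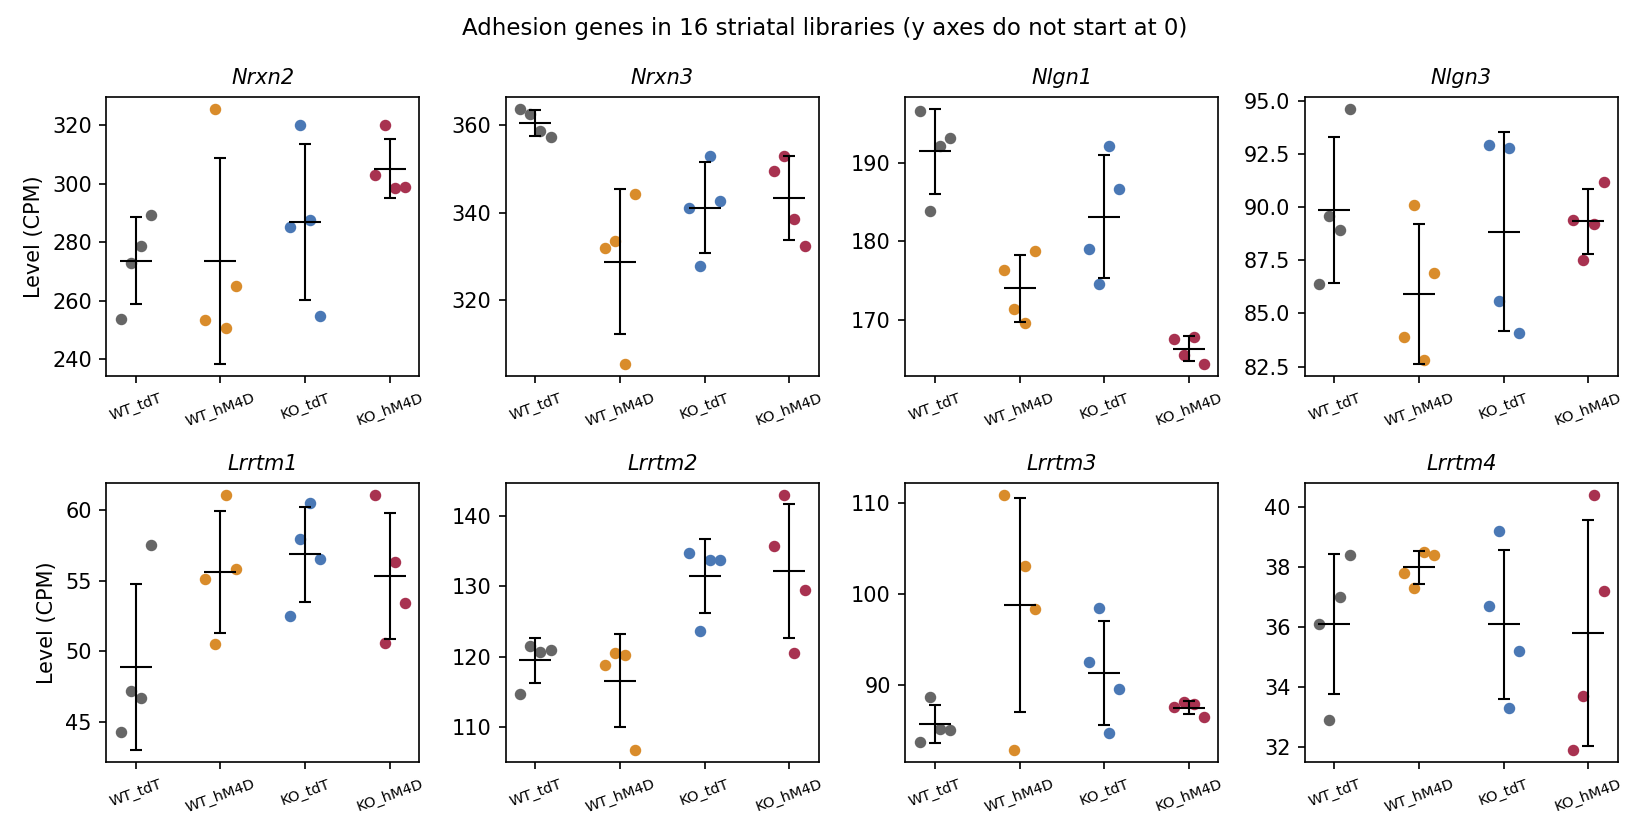
CPM of each member in each library, with group mean ± SD (n = 4); the y axes do not start at 0. Nrxn3 is highest in WT_tdT, Nlgn1 is lower in the hM4Di groups and Lrrtm2 is higher in the knockout groups. The groups of Nrxn2, Nlgn3, Lrrtm1, Lrrtm3 and Lrrtm4 overlap in the pairwise comparisons of the design.

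Lrrtm2, an excitatory postsynaptic organiser that binds neurexins, was higher in knockouts under both viruses. WT_tdT 1 to 4 read 114.7, 121.6, 120.7 and 120.9 CPM, and KO_tdT 1 to 4 read 134.8, 123.6, 133.7 and 133.7 CPM. WT_hM4D 1 to 4 read 118.9, 120.5, 120.2 and 106.8 CPM, and KO_hM4D 1 to 4 read 135.7, 142.9, 120.6 and 129.5 CPM. Under each virus the 4 knockout libraries lay above the 4 wild-type libraries, though KO_hM4D 3 did so by under 1 CPM and also lay below 3 of the 4 WT_tdT libraries. Under hM4Di the sex transcripts separated the same libraries, so genotype and sex cannot be told apart there. The log2 change was 0.14 (SE 0.06, adjusted p by edgeR = 0.504) under tdTomato and 0.18 (SE 0.06, adjusted p by edgeR = 0.317) under hM4Di. Averaged over viruses it was 0.16 (SE 0.04, adjusted p by edgeR = 0.202), or 11.7%, and DESeq2 gave adjusted p = 0.0239, the lowest in a range of 0.0239 to 0.397 over the alternatives. Between viruses the changes were -0.04 (SE 0.06, adjusted p by edgeR = 0.864) in wild types and 0.01 (SE 0.06, adjusted p by edgeR = 0.969) in knockouts.

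For KO_hM4D against WT_hM4D, libraries of the same replicate number were taken as pairs because their deviations correlated in these same counts. The labels give the numbers no meaning, and p-values with this block do not allow for that choice. A fit of these groups with the pair as a block called 1232 genes, 6.12% of those tested. The fit of all groups without it called 4. The members were counted in the fit with the block. That fit called 0 of 8 members. Lrrtm2 read 0.19 (SE 0.05, adjusted p by edgeR = 0.0679) in that fit, Nrxn2 0.17 (SE 0.06, adjusted p by edgeR = 0.122) and Nlgn1 -0.06 (SE 0.04, adjusted p by edgeR = 0.370).

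The host gene of Lrrtm2 did not take the same direction. Ctnna1, an alpha-catenin that links cadherins to actin, changed by -0.05 (SE 0.09, adjusted p by edgeR = 0.924) in KO_tdT against WT_tdT and by -0.12 (SE 0.09, adjusted p by edgeR = 0.578) in KO_hM4D against WT_hM4D. In the pairwise comparisons 0 of 3 alpha-catenin host genes were called in either direction. Ctnna2, around Lrrtm1, stayed within 0.07 of 0 on the log2 scale, and Ctnna3, around Lrrtm3, was counted at only 3.03 to 6.83 CPM.

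Lrrtm3 had a wide spread in a single group. WT_hM4D 1 to 4 read 110.8, 82.9, 103.1 and 98.3 CPM, and WT_tdT 1 to 4 read 83.8, 88.7, 85.2 and 85.1 CPM. KO_tdT 1 to 4 read 92.5, 98.4, 84.7 and 89.6 CPM, and KO_hM4D 1 to 4 read 87.6, 88.1, 87.9 and 86.5 CPM. WT_hM4D 1, 3 and 4 lay above all of WT_tdT and KO_hM4D, but WT_hM4D 2, a library of mixed transcripts and the one with high Nrxn2, was the lowest of all 16. The log2 change in WT_hM4D against WT_tdT was 0.20 (SE 0.07, adjusted p by edgeR = 0.284), and without WT_hM4D 2 it was 0.28 and called (adjusted p by edgeR = 0.0452). In the same comparison the markers of oligodendrocyte precursors were higher in 4 of 4 cases (146.2 to 167.1 against 120.7 to 164.0 CPM summed) and those of microglia in 4 of 5 (346.0 to 395.0 against 325.3 to 349.1 CPM), with 0 called, and the endothelial sums did not overlap, as given for Nlgn1. Over the 16 libraries Lrrtm3 ran with the precursor markers at r = 0.63 (0.44 for deviations from the group means) and with the microglial ones at 0.52 (0.30), and their part in the Lrrtm3 values was not tested. KO_hM4D against WT_hM4D gave -0.17 (SE 0.07, adjusted p by edgeR = 0.339) and the interaction -0.27 (SE 0.10, adjusted p by edgeR = 0.668). Over the 16 libraries Lrrtm3 ran opposite to Nlgn3 (r = -0.65) and to Nrxn3 (r = -0.63), which became -0.52 and -0.36 for deviations from the group means.

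Lrrtm1, a postsynaptic organiser of excitatory synapses, was lowest in control wild types. WT_tdT 1 to 4 read 44.3, 47.2, 46.7 and 57.5 CPM, and KO_tdT 1 to 4 read 52.5, 57.9, 60.5 and 56.5 CPM. WT_hM4D ranged from 50.5 to 61.0 CPM and KO_hM4D from 50.6 to 61.0 CPM. WT_tdT 1 to 3 lay below every library of the other groups, and WT_tdT 4, a library of mixed transcripts, lay among them. The log2 change against WT_tdT was 0.22 (SE 0.08, adjusted p by edgeR = 0.471) in KO_tdT and 0.18 (SE 0.08, adjusted p by edgeR = 0.418) in WT_hM4D, comparisons that share their control. Without WT_tdT 4 and the other libraries of mixed transcripts these values were 0.27 (adjusted p by edgeR = 0.391) and 0.32 (adjusted p by edgeR = 0.231). Lrrtm1 ran with the markers of thalamic, septal and pallidal neurons (r = 0.69 over 16 libraries, 0.55 for deviations from the group means), whose sums were 58.9 to 75.6 CPM in WT_tdT and 67.5 to 319.8 CPM in KO_tdT, with 9 of 9 markers higher and 0 called. It also ran with the markers of oligodendrocyte precursors (r = 0.60, and 0.65 for deviations from the group means), which were higher in 4 of 4 cases in WT_hM4D against WT_tdT. The part of either list in the Lrrtm1 values was not tested.

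Lrrtm4, which binds heparan sulfate chains of its presynaptic partners, had the lowest level and no group that stood apart. Group means were 36.1 ± 2.33 CPM in WT_tdT, 38.0 ± 0.591 in WT_hM4D, 36.1 ± 2.51 in KO_tdT and 35.8 ± 3.78 in KO_hM4D (SD, n = 4). All 4 groups overlapped, and its largest change in a pair of groups was -0.09 (SE 0.07, adjusted p by edgeR = 0.616), in KO_hM4D against WT_hM4D.

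The groups of 2 of 8 members did not overlap in KO_tdT against WT_tdT, beside 4.08% of all genes. Lrrtm2 was the 1 that lay higher (2.05% of all genes) and Nrxn3 the 1 that lay lower (2.04%). In WT_hM4D against WT_tdT 0 of 8 lay higher (3.64%) and 2 lower, Nlgn1 and Nrxn3 (3.18%), or 6.83% of all genes in either direction. In KO_hM4D against KO_tdT 0 of 8 lay higher (2.33%) and 1 lower, Nlgn1 (2.55%), or 4.88% in either direction. In KO_hM4D against WT_hM4D 1 lay higher, Lrrtm2 (2.73%), and 1 lower, Nlgn1 (3.37%), or 6.09% in either direction.

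Binding partners of the members were counted in the same comparisons. Of 34 secreted and membrane partners (cerebellins, calsyntenins, neurexophilins, latrophilins, Flrt, Mdga and others) 0 rose and 0 fell by edgeR over all genes in each of the 7 comparisons. The 3 of smallest p with hM4Di in wild types were Mdga2, which blocks neuroligins from neurexins (-0.11, SE 0.06, adjusted p by edgeR = 0.501), and the latrophilins Adgrl3 (-0.08) and Adgrl1 (-0.10). In knockouts with tdTomato they were the cerebellin Cbln2, a secreted bridge between neurexins and glutamate receptor relatives (0.56, SE 0.24, adjusted p by edgeR = 0.515), Fam19a4 (1.40, SE 0.61) and C1ql2 (0.90, SE 0.42). In KO_hM4D against KO_tdT they were C1ql1 (-0.53, SE 0.14, adjusted p by edgeR = 0.281), C1ql2 (-1.38, SE 0.42) and the calsyntenin Clstn2 (0.34, SE 0.12). In KO_hM4D against WT_hM4D they were Adgrl1 (0.18, SE 0.06, adjusted p by edgeR = 0.317), C1ql1 (-0.44, SE 0.14) and Clstn2 (0.35, SE 0.12), and 3 of the 34 had groups that did not overlap, all higher in KO_hM4D, beside 2.73% of all genes in that direction. C1ql2 was counted at 0.381 to 3.04 CPM and C1ql1 at 3.54 to 7.09 CPM, so their changes rest on low levels.

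With the replicate pair as a block in the fit of KO_hM4D and WT_hM4D alone, 4 of these 34 partners were called higher and 1 lower, beside 6.12% of all genes called in either direction. They were Cbln2 (0.37, SE 0.06, adjusted p by edgeR = 0.0205), Clstn2 (0.36, SE 0.05, adjusted p by edgeR = 0.0122), Clstn1 (0.21, SE 0.04, adjusted p by edgeR = 0.0342), Adgrl1 (0.19, SE 0.04, adjusted p by edgeR = 0.0418) and the lower C1ql1 (-0.44, SE 0.08, adjusted p by edgeR = 0.0270). With the block in the fit of all groups 0 of the 34 were called. The markers of cortical neurons were higher in the same comparison, as given for Nrxn2. The summed astrocyte markers were the one list whose groups did not overlap there, with 5545 to 6257 CPM in KO_hM4D and 5179 to 5290 CPM in WT_hM4D, although 4 of the 8 markers had a positive and 4 a negative change. The part of either list in these calls, and in the values of Lrrtm2 and Nlgn1, whose groups separated in the same comparison, was not tested. Sex transcripts separated these groups too and cannot be told apart from genotype here.

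Of the 15 cytoplasmic partners, the scaffolds that bind neurexin and neuroligin tails, 0 rose and 0 fell by edgeR in the 7 comparisons. Apba3, a Mint adaptor of the Cask complex family, had the smallest p with hM4Di in wild types. It read 7.45 to 8.83 CPM in WT_tdT and 10.1 to 11.5 CPM in WT_hM4D, groups that did not overlap, with a log2 change of 0.43 (SE 0.09, adjusted p by edgeR = 0.0764). It was called in 2 of 24 alternatives there, with adjusted p of 0.00263 to 0.331. Averaged over genotypes the change was 0.33 (SE 0.06, adjusted p by edgeR = 0.05, not under the threshold), and it was called in 4 of 22 alternatives, with adjusted p of 0.000488 to 0.337. Its values were 0.23 (SE 0.09, adjusted p by edgeR = 0.395) with hM4Di in knockouts and 0.23 (SE 0.09, adjusted p by edgeR = 0.482) in KO_tdT against WT_tdT. In the block fit of KO_hM4D and WT_hM4D 1 of the 15 was called, beside 6.12% of all genes, the adaptor Apba2 (0.27, SE 0.04, adjusted p by edgeR = 0.0173).

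Among 8 genes of neurexin splicing and of shedding of the members by proteases, 1 fell in the knockout. It was called in the averaged genotype comparison, beside 0.0768% of all genes, and in KO_hM4D against WT_hM4D, beside 0.0192%. Khdrbs1 encodes Sam68, an RNA-binding protein that regulates alternative splicing of neurexin transcripts. WT_tdT 1 to 4 read 95.3, 86.2, 105.0 and 101.4 CPM, and KO_tdT 1 to 4 read 75.2, 72.9, 75.7 and 67.5 CPM. WT_hM4D 1 to 4 read 107.5, 89.3, 106.0 and 101.5 CPM, and KO_hM4D 1 to 4 read 79.1, 65.2, 73.8 and 63.2 CPM. All 8 knockout libraries lay below all 8 wild-type libraries, and the share of all genes that did so was not computed.

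The log2 change of Khdrbs1 averaged over viruses was -0.47 (SE 0.06, adjusted p by edgeR = 0.00188), or -27.7%. It was -0.52 (SE 0.08, adjusted p by edgeR = 0.0484) in KO_hM4D against WT_hM4D and -0.41 (SE 0.08, adjusted p by edgeR = 0.146) in KO_tdT against WT_tdT, where it did not pass. With the replicate block in the fit of all groups this last value was called (-0.41, adjusted p by edgeR = 0.0499), 1 of 2 alternatives in 24 that called it (adjusted p of 0.00262 to 0.716), and with the block in the fit of these groups alone it was not (adjusted p by edgeR = 0.716). The call in KO_hM4D against WT_hM4D held in 11 of 24 alternatives, with adjusted p of 4.81e-06 to 0.312, and with the replicate pair as a block it was 0.00896 in the fit of all groups and 0.00506 in that of these groups alone. The averaged call was lost without the libraries of mixed transcripts (-0.50, adjusted p by edgeR = 0.0574). Khdrbs1 lies on chromosome 4 (129703164 to 129742303, minus strand), 2.47 Mb from Dlgap3, and whether the stretch linked to the knockout allele bears on its counts was not tested. In KO_hM4D against WT_hM4D the Khdrbs1 call also cannot be told apart from the difference in sex transcripts. Counts per gene do not show whether neurexin splicing differed.

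**Figure D5:**
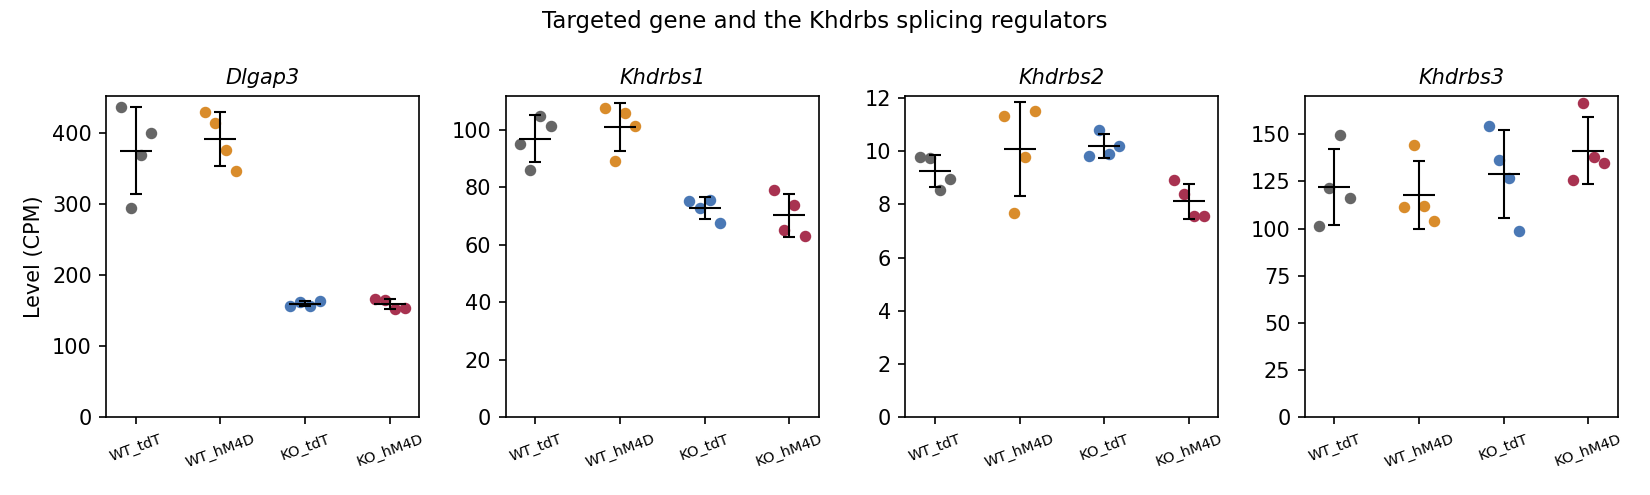
CPM (y axes from 0) of Dlgap3 and of 3 Khdrbs genes in each library, with group mean ± SD (n = 4). Dlgap3 and Khdrbs1 are lower in all 8 knockout libraries, and the 8 knockout libraries overlap the 8 wild-type ones for Khdrbs2 and Khdrbs3.

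The related splicing regulators were not called without the block. Khdrbs2 read 9.83 to 10.8 CPM in KO_tdT and 7.56 to 8.93 CPM in KO_hM4D, groups that did not overlap, a log2 change of -0.33 (SE 0.10, adjusted p by edgeR = 0.312). Khdrbs3 read 104.0 to 144.4 CPM in WT_hM4D and 126.0 to 166.6 CPM in KO_hM4D, with 0.26 (SE 0.14, adjusted p by edgeR = 0.450), and with the pair as a block in the fit of these groups it was called (0.27, SE 0.05, adjusted p by edgeR = 0.0209). The proteases Adam10 and Mmp9 and the gamma-secretase subunits Psen2 and Ncstn were not called in any comparison.

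The genes most alike to each member over the 16 libraries were found among 11219 genes of at least 5 CPM by Pearson's r of log2 CPM. For Nrxn2 they were the cadherin Cdh22 (r = 0.93), the kinase Src (0.91) and Prdm11 (0.90). For Nlgn1 they were the zinc finger gene Zfp945 (0.94), Hnrnpdl (0.91) and Ift52 (0.91), and for Nrxn3 they were Sec24a (0.88), the clock repressor Nr1d1 (0.87) and Rfx5 (0.86). Lrrtm2 ran with Irak2 (0.85), Lrrtm3 with the channel Pkd2 (0.87), Lrrtm1 with Megf11 (0.84), Lrrtm4 with the sodium channel subunit Scn3b (0.85) and Nlgn3 with Asxl3 (0.83). As deviations from the group means these values lay between 0.69 and 0.90 for all 24 genes found in this way. The libraries share composition and depth, and the genes were picked for their r, so the values describe these libraries.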

How the data were processed

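Striatal RNA was purified with a Qiagen RNeasy column, depleted of ribosomal RNA and made into stranded Illumina TruSeq libraries, per the labels' protocols. The authors deposited raw read counts per gene and library as whole numbers. bcl2fastq 2.17, STAR and HTSeq and the builds GRCm38 and mm10 stand in the submitters' processing notes. Which annotation, strand setting and versions of STAR and HTSeq were used is not given in the sources used here. Groups came from titles and genotype fields, and for 3 WT_hM4D libraries the source field names the knockout instead. Replicates are taken as mice from the design text, and their litters and cages are not given.

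The main test was that of edgeR 4.0.16 (R 4.3.3). filterByExpr by group left 20825 genes, all 8 members among them. After TMM scaling, all 16 libraries entered 1 quasi-likelihood model (residual degrees of freedom 12, biological coefficient of variation 0.127). The p-values were two-sided and adjusted by Benjamini-Hochberg over these genes, with calls made under 0.05. Library totals were 129149745 to 180655067 counts. The script was tested on simulated data. Alternatives were DESeq2 1.42.0, limma-voom 3.58.1, other scaling and filtering, a replicate block, and fits without single libraries or without the 4 libraries of mixed transcripts. Exon lengths, strands and overlaps came from GENCODE M21.

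Replicate numbers are in the labels, which give them no meaning. Deviations from the group means of libraries with the same number correlated at 0.611, 0.596, 0.499 and 0.223 in KO_hM4D and WT_hM4D, and these were taken as paired. This pairing was chosen from these same counts, and p-values with the block do not allow for the choice. Single correlations in other pairs of groups reached 0.514. In the other 5 pairs of groups at least 1 correlation was 0.1 or less. Libraries of a group differed by more than sampling noise, with a chi-square per degree of freedom of at least 12.3.

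Named genes are the 8 members, Dlgap3, called genes of the partner lists, the 3 partners of smallest p per list and pairwise comparison (given in part, since some are not reported here), and the 3 genes most alike to each member. Clstn1 and other partners called only with the block in the fit of 2 groups were chosen after their values were seen. The members and lists were chosen with earlier results of these data known.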

Additional observations from a re-analysis of the deposited data

Results flagged for a closer look

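Lrrtm2 had a single low library in 3 of its 4 groups, farther from its neighbours than Dixon's test at the 95% level allows. In WT_tdT the first replicate stood at 114.7 CPM while the others read 120.7 to 121.6, a gap of 0.869 of the group's range. In WT_hM4D the fourth stood at 106.8 CPM against 118.9 to 120.5 (0.883), and in KO_tdT the second stood at 123.6 CPM against 133.7 to 134.8 (0.901). Chance marks about 1 in 20 of the 32 groups checked over the 8 members. Of these libraries KO_tdT 2 is the one whose low value narrows the gap between genotypes, and it still lay above the highest WT_tdT library, at 121.6 CPM.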

How the results depend on the processing

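Among 24 alternatives the count of members called moved from 0 to 1 with DESeq2 in WT_hM4D against WT_tdT, KO_hM4D against KO_tdT and the averaged virus comparison (Nlgn1 in each) and in the averaged genotype comparison (Lrrtm2). Leaving out single libraries gave 0 to 1 members in WT_hM4D against WT_tdT (1, Lrrtm3, without WT_hM4D 2) and 0 to 1 in the averaged virus comparison (1, Nlgn1, without KO_tdT 2). The cause was not tested. In the other comparisons and alternatives the count was 0. The 21 values followed under the alternatives, those of members with an unadjusted p under 0.05 or separate groups and those of called Dlgap3 and Khdrbs1, changed sign in 0 cases. Of all 56 member values over the 7 comparisons 15 changed sign somewhere, none larger than 0.772 SE. With the replicate block in the fit of all groups 0 members were called in any comparison. With the block in fits of 2 groups 0 members were called either, though against the same fits without the block the number of genes called went from 7 to 1232 in KO_hM4D against WT_hM4D, from 49 to 10 in WT_hM4D against WT_tdT, from 0 to 4 in KO_hM4D against KO_tdT and from 1 to 0 in KO_tdT against WT_tdT. In the fit of all groups without the block these counts were 4, 18, 1 and 8. In the last comparison Dlgap3 was not called with the block in the fit of 2 groups (-1.22, adjusted p by edgeR = 0.360). The block changed no other call of a member. DESeq2 and limma-voom use the same counts, and 4 mice per group limit all of these tests.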
